A study of Mus musculus with 9 samples.

Results

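The coagulation and fibrinolysis genes are 32 genes for clotting factors, their inhibitors and receptors, and the enzymes that make or control plasmin. They were taken by gene symbol, under a rule that uses no measured values, and all 32 were found among the 21936 genes of the deposited table. Liver RNA of 9 male wild-type C57BL/6 mice was sequenced, 1 library per mouse and 3 mice per group. The mice were bought at 9 weeks of age, adapted for 1 week and fed for 4 weeks. The diet of the MCS mice was sufficient in methionine and choline, and that of the MCD mice, which serves as a model of steatohepatitis, lacked both. Both groups were gavaged daily with the vehicle, 0.5% sodium carboxymethylcellulose (CMC-Na). HGPP mice ate the deficient diet and were gavaged with Gynostemma pentaphyllum polysaccharides at 300 mg/kg. HGPP thus differed from MCS in both diet and treatment, and from MCD in the treatment alone. Levels are given as FPKM, which counts fragments by gene length and by the depth of the library.

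Hepatocytes secrete most clotting factors, fibrinogen and plasminogen into the blood. Tissue factor and factor VII start clotting, the contact and intrinsic factors amplify it, and factor X with factor V turns prothrombin into thrombin, which cuts fibrinogen to fibrin. Antithrombin, the protein C system and tissue factor pathway inhibitor restrain these steps, and plasmin, cut from plasminogen by urokinase or tissue plasminogen activator, dissolves the clot. Endothelial cells, macrophages and platelets carry the surface receptors and several of the activators, so that the genes of this system are spread over several cell types of the liver.

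In the MCD group fibrinogen, plasminogen and several clotting factors fell against MCS, and the activators of plasminogen rose. In MCD against MCS livers 14 of the 32 genes (background 22.1% of all genes) passed an adjusted p of 0.05 (limma on log2(FPKM + 0.1), Benjamini-Hochberg over 13817 tested genes). Of them 5 rose (15.6% of the 32) against a background of 19.6% of all tested genes that rose, and 9 fell (28.1%) against 2.55% of all genes. The median log2 fold change was -0.19 over the 32 genes and 0.40 over all genes tested. Genes that fell were the 3 fibrinogen chains Fga, Fgb and Fgg, plasminogen (Plg), and F2, F7, F9, F13b and Serpinc1. Genes that rose were the urokinase receptor Plaur, urokinase Plau, the endothelial protein C receptor Procr, the factor XIII A chain F13a1 and tissue plasminogen activator Plat. F13a1 was tested only because it is high on the deficient diet, and without it 4 genes rose. All 3 MCD livers were above all 3 MCS livers for 10 of the 32 genes (31.2%, background 38.1%), F13a1 among them. They were below the MCS livers for 13 (40.6%, background 5.08%). In bulk tissue fewer cells of a type and less RNA per cell cannot be told apart.

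The genes that rose and those that fell differed in level. Over all 9 libraries 22 of the 32 genes averaged at least 10 FPKM and 10 averaged less, a level chosen after the values were seen. Of the 22 abundant genes 0 rose and 9 fell (40.9%) in MCD against MCS. Of the 3291 tested genes at that level 12.1% rose and 7.14% fell. Of the 10 low genes 5 rose, F13a1 among them, and 0 fell, beside 21.9% and 1.12% of the 10526 tested genes below that level. All 32 genes together held 1.83, 1.72 and 1.90% of the summed FPKM in the MCS livers. They held 1.08, 1.08 and 0.785% in the MCD livers and 1.33, 0.954 and 1.31% in the HGPP livers. The MCS livers thus stood above all livers on the deficient diet in this share, and the HGPP and MCD livers overlapped.

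**Figure D1:**
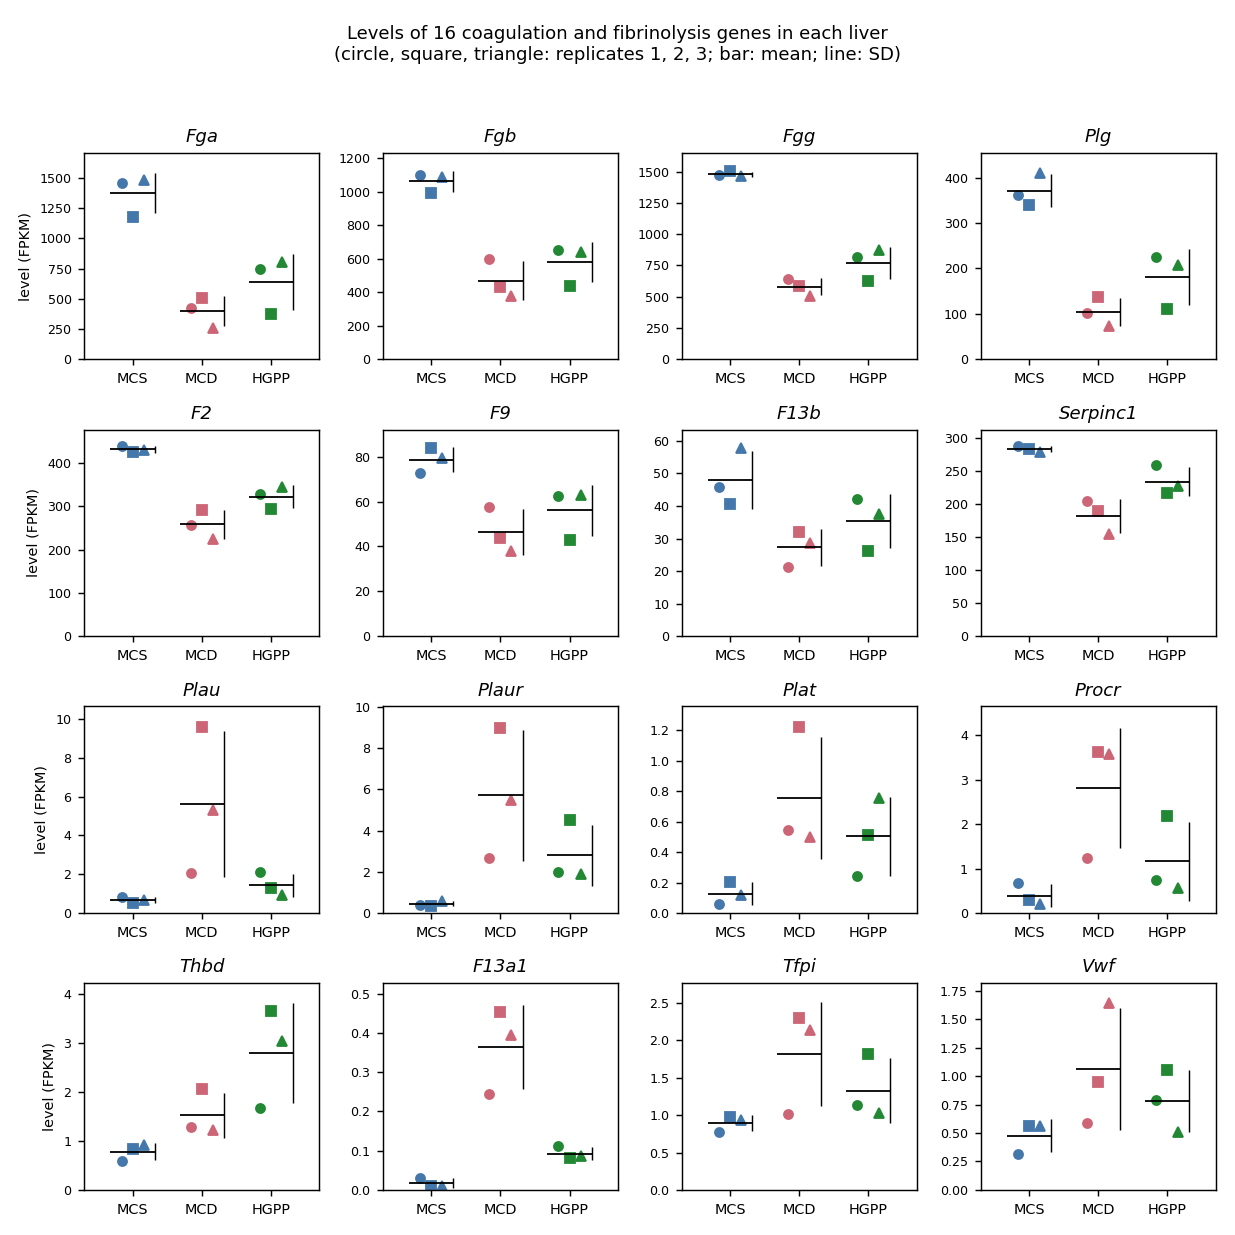
Each panel plots 1 gene, with its level in FPKM on a linear axis from 0 and 1 point per liver in the groups MCS, MCD and HGPP (circle, square and triangle are replicates 1, 2 and 3, the bar is the mean and the line the SD, n = 3). The upper 8 genes lie highest in MCS, such as Plg at 341 to 411 FPKM in MCS and 73.6 to 137 in MCD. The lower 8 genes lie lowest on average in MCS, such as Plaur at 0.342 to 0.587 FPKM in MCS and 2.66 to 8.99 in MCD.

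Fibrinogen is the precursor of fibrin and consists of 3 chains. Their genes lie side by side on chromosome 3 (GRCm38) in the order Fgg, Fga and Fgb, with gaps of 11 and 6.51 kb and no other gene of the table between them, and Fgb lies on the opposite strand. The bases just before each gene are shown because the 3 chains moved together. The element CTGGGA, known from rat and human fibrinogen genes as part of their response to interleukin-6, is in capitals. The sequences are RefSeq promoters of the build GRCm38.p6, read on the strand of the gene and ending before the annotated gene.
Fgg, chr3:83007664-83007723, plus strand: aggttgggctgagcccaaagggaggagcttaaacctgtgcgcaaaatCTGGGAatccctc
Fga, chr3:83026003-83026075, plus strand: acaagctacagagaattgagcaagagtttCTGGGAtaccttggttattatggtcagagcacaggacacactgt
Fgb, chr3:83049864-83050013, minus strand: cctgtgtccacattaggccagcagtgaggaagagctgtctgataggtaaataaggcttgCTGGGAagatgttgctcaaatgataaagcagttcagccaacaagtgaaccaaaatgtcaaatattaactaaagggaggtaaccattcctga
Counted from the RefSeq start, with -1 as the base before it, the element lies at -13 to -8 in Fgg, -121 to -116 in Fga and -91 to -86 in Fgb. The RefSeq start of Fga lies inside the annotated gene, so the bases shown for Fga end short of that start. Searched on both strands within 250 bases before the start, CTGGGA was found in 10 of the 24 genes of the system that have a promoter entry (41.7%) and in 26.8% of 27025 promoters. A match is a description of the letters and not of a used site.

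All 3 fibrinogen chains fell on the deficient diet. Fga (ENSMUSG00000028001, chr3:83026076-83033627), the Aα chain, stood at 1457, 1180 and 1483 FPKM in MCS, at 423, 508 and 261 in MCD and at 745, 378 and 800.1 in HGPP. Every MCS liver was above every other liver, and HGPP replicate 2 lay within the MCD range. Its log2 fold change was -1.84 (SE 0.28, limma adjusted p = 0.00304) in MCD and -1.17 (SE 0.28, limma adjusted p = 0.0242) in HGPP, each against MCS. On the linear scale the MCS mean was 3.46 times the MCD mean and 2.14 times the HGPP mean.

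Fgb (ENSMUSG00000033831, chr3:83040141-83049863), the Bβ chain, stood at 1101, 991 and 1088 FPKM in MCS, at 600, 431 and 378 in MCD and at 654, 440 and 640 in HGPP. Fgg (ENSMUSG00000033860, chr3:83007724-83015049), the γ chain, stood at 1469, 1503 and 1462 FPKM in MCS, at 644, 588 and 508 in MCD and at 815, 630 and 874 in HGPP. Neither gene overlapped between MCS and the deficient diet. Fgb fell by 1.20 (SE 0.24, limma adjusted p = 0.00826) and Fgg by 1.36 (SE 0.22, limma adjusted p = 0.00369) on the log2 scale in MCD, and by 0.90 (SE 0.20, limma adjusted p = 0.0165) and 0.95 (SE 0.18, limma adjusted p = 0.0106) in HGPP.

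The ratio between chains varied from liver to liver. The ratio of Fga to Fgb was 1.32, 1.19 and 1.36 in MCS, 0.705, 1.18 and 0.690 in MCD and 1.14, 0.858 and 1.25 in HGPP. MCD replicate 2 lay just under the MCS range, at 1.18, and the other two MCD livers lay well under it. Together the 3 chains held 0.952, 0.868 and 1.01% of all FPKM in MCS, 0.381, 0.387 and 0.250% in MCD and 0.562, 0.344 and 0.573% in HGPP. Averaged over 3 livers this share was 0.944% ± 0.073 (SD) in MCS, 0.340% ± 0.077 in MCD and 0.493% ± 0.130 in HGPP.

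**Figure D2:**
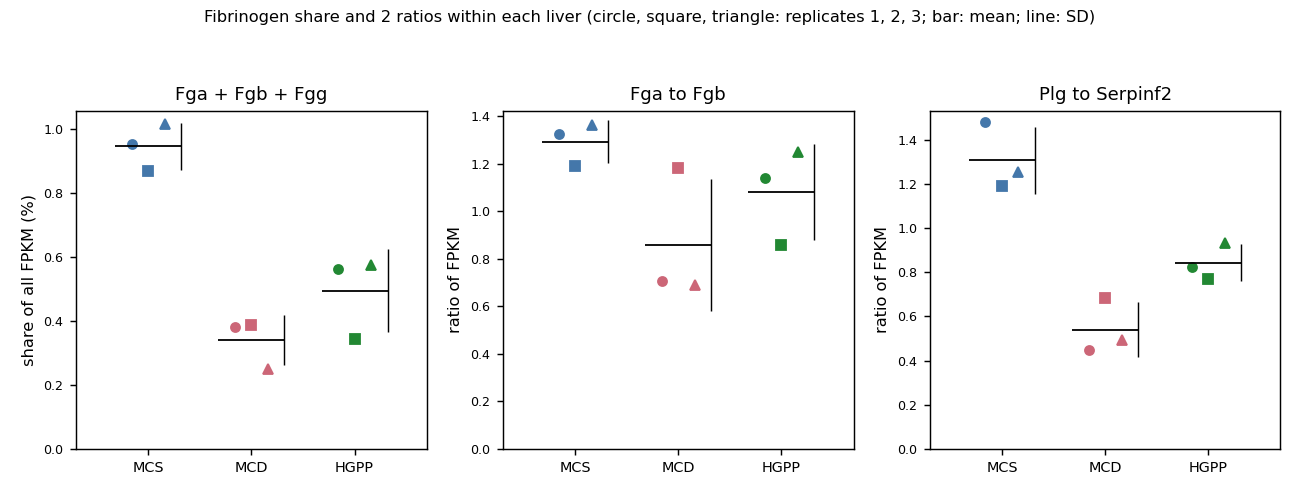
The 3 panels plot the share of all FPKM held by Fga, Fgb and Fgg in percent, the ratio of Fga to Fgb and the ratio of Plg to Serpinf2, with 1 point per liver on linear axes from 0 (circle, square and triangle are replicates 1, 2 and 3, the bar is the mean and the line the SD, n = 3). The fibrinogen share lies at 0.868 to 1.01% in MCS and at 0.250 to 0.573% in the 6 livers on the deficient diet, and the ratio of Plg to Serpinf2 lies at 1.19 to 1.48 in MCS and at 0.447 to 0.933 in those 6 livers.

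Factor XIII crosslinks fibrin, and its A and B chains moved in opposite directions. F13b, the carrier B chain made by hepatocytes, stood at 45.9, 40.5 and 57.9 FPKM in MCS, at 21.2, 32.1 and 28.6 in MCD and at 42.2, 26.2 and 37.6 in HGPP. It fell by 0.82 on the log2 scale in MCD (SE 0.23, limma adjusted p = 0.0299), and the HGPP value of -0.46 (SE 0.21, limma adjusted p = 0.147) did not pass the test. F13a1, the catalytic A chain, known from macrophages and platelets, stood at 0.0314, 0.0095 and 0.00992 FPKM in MCS, at 0.245, 0.453 and 0.396 in MCD and at 0.111, 0.0810 and 0.0851 in HGPP. The 3 groups did not overlap, with MCS lowest, HGPP between and MCD highest.

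The F13a1 values rest on few reads. Reads recovered from FPKM and gene length were 6 over the 3 MCS livers, 105 over MCD and 27 over HGPP. Per fragment sequenced, MCD had 21.0 times the MCS rate (95% exact interval 9.32 to 58.4, counting error only) and HGPP 5.10 times (2.06 to 15.1). The limma log2 fold change, which understates so low a gene, was 1.97 (SE 0.36, adjusted p = 0.00615) in MCD and 0.72 (SE 0.30, adjusted p = 0.118) in HGPP. F13a1 passed the filter on low values through its MCD libraries and 1 HGPP library, with 0 MCS libraries at the limit. It was thus tested, and counted among the calls, only through livers on the deficient diet.

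Vwf, von Willebrand factor of endothelial cells and platelets, stood at 0.313, 0.562 and 0.557 FPKM in MCS, at 0.590, 0.95 and 1.64 in MCD and at 0.792, 1.05 and 0.508 in HGPP. MCD and MCS did not overlap, but the log2 fold change of 0.94 (SE 0.40, limma adjusted p = 0.111) did not pass the test, nor did the HGPP value of 0.60 (SE 0.33, limma adjusted p = 0.221).

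Of the 6 fibrinolysis genes 3 rose (50%) and 1 fell (16.7%) in MCD, and 2 rose (33.3%) and 1 fell (16.7%) in HGPP. Over all tested genes 19.6% rose and 2.55% fell in MCD, and 16.4% and 2.48% in HGPP. Plg (ENSMUSG00000059481, chr17:12378608-12419385), the precursor of plasmin, stood at 361, 341 and 411 FPKM in MCS, at 102, 137 and 73.6 in MCD and at 225, 110 and 208 in HGPP. All MCS livers were above all others, and HGPP replicate 2 lay within the MCD range. The log2 fold change was -1.87 (SE 0.25, limma adjusted p = 0.00188) in MCD, the lowest of the 32 genes, and -1.10 (SE 0.26, limma adjusted p = 0.0213) in HGPP. The MCS mean was 3.56 times the MCD mean.

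Serpinf2, α2-antiplasmin, the inhibitor of plasmin, averaged 286 ± 42.1, 193 ± 40.1 and 213 ± 64.9 FPKM in MCS, MCD and HGPP (SD, n = 3, here and for the averages that follow), with log2 fold changes of -0.58 (SE 0.23, limma adjusted p = 0.0935) and -0.46 (SE 0.24, limma adjusted p = 0.189) that did not pass the test. The ratio of Plg to Serpinf2 within a liver was 1.48, 1.19 and 1.25 in MCS, 0.447, 0.683 and 0.492 in MCD and 0.826, 0.769 and 0.933 in HGPP. This ratio, which does not depend on how a library is scaled and was chosen after the values were seen, did not overlap between any of the 3 groups. Cpb2, which encodes the carboxypeptidase that protects fibrin from plasmin, averaged 143 ± 7.30, 96.8 ± 7.97 and 112 ± 5.66 FPKM in MCS, MCD and HGPP, and its MCD value of -0.56 (SE 0.18) had a limma adjusted p of 0.0528.

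Urokinase and its receptor bind to form the activator of plasminogen at the cell surface. The promoter stretch of Plaur is shown with that of Procr because both genes rose and both hold the AP-1 element TGACTCA, in capitals. The sequences are from RefSeq, build GRCm38.p6, on the strand of the gene.
Plaur, chr7:24462383-24462482, plus strand: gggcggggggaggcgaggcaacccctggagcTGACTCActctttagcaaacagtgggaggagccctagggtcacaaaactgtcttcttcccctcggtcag
Procr, chr2:155751047-155751116, plus strand: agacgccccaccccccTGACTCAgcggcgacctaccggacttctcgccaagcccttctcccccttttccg
Counted from the RefSeq start, the element lies at -69 to -63 in Plaur and at -154 to -148 in Procr. The RefSeq start of Procr lies inside the annotated gene, so the bases shown for Procr end short of that start. The motif TGANTCA was found on either strand within 250 bases before the start in 5 of the 24 genes with an entry (20.8%, namely F2, F3, Fgb, Plaur and Procr) and in 6.87% of all promoters. It was therefore present before genes that rose and before genes that fell.

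Plaur (ENSMUSG00000046223, chr7:24462484-24475968) stood at 0.404, 0.342 and 0.587 FPKM in MCS, at 2.66, 8.99 and 5.48 in MCD and at 2.00, 4.49 and 1.90 in HGPP. MCS lay below all other livers, and MCD and HGPP overlapped. The log2 fold change was 3.28 (SE 0.42, limma adjusted p = 0.00167) in MCD, the highest of the 32 genes, and 2.32 (SE 0.36, limma adjusted p = 0.00441) in HGPP. On the linear scale the MCD mean was 12.8 times the MCS mean.

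Plau (ENSMUSG00000021822, chr14:20836660-20843385) stood at 0.805, 0.514 and 0.678 FPKM in MCS, at 2.06, 9.56 and 5.28 in MCD and at 2.09, 1.27 and 0.942 in HGPP. It rose by 2.67 on the log2 scale in MCD (SE 0.47, limma adjusted p = 0.00533), and the HGPP value of 0.95 (SE 0.32, limma adjusted p = 0.0662) did not pass the test although no HGPP liver overlapped MCS. MCD replicate 1 lay at the level of HGPP replicate 1, and the other two MCD livers lay above every HGPP liver. Plat stood at 0.0593, 0.205 and 0.118 FPKM in MCS, at 0.544, 1.22 and 0.501 in MCD and at 0.240, 0.514 and 0.756 in HGPP, with log2 fold changes of 1.86 (SE 0.42, limma adjusted p = 0.0130) and 1.36 (SE 0.41, limma adjusted p = 0.0472). Its MCS values rest on 7 to 20 recovered reads per library.

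Markers of other cells also changed on the deficient diet. The summed FPKM of 12 markers of monocyte-derived macrophages was 46.3 to 87.8 in MCS, 203 to 1176 in MCD and 130 to 306 in HGPP. Against MCS 11 of the 12 rose in MCD (91.7%, background 19.6%) and 9 in HGPP (75%, background 16.4%). Of 10 stellate cell markers 5 rose in MCD, of 7 Kupffer cell markers 3 and of 6 cholangiocyte markers 2 (50, 42.9 and 33.3%, background 19.6%). With median-of-ratios scaling of the libraries 3, 0 and 0 did (background 8.91%). Their sums were 45.6 to 61.4, 36.7 to 137 and 13.6 to 23.4 FPKM in MCS and 78.5 to 187, 92.9 to 405 and 27.1 to 153 in MCD. Spp1 is in both the macrophage and the cholangiocyte list and made up most of the cholangiocyte sum. It stood at 11.2 to 18.9 FPKM in MCS and 22.9 to 142 in MCD, so the 2 sums are not separate readings. Within MCD, replicate 1 was lowest and replicate 2 highest in Plau, Plaur, Procr, Tfpi, F13a1, F3, F8 and Pros1. F13b, which fell in MCD, had the same order. So did the sums of the macrophage, Kupffer, stellate, cholangiocyte and both endothelial lists. Of the genes below 10 FPKM, Plat, Thbd and Vwf did not have this order in MCD. Within HGPP the macrophage sum was 168, 306 and 130 FPKM, highest in replicate 2. Plaur, Procr, Tfpi, F8 and Pros1 were also highest there, whereas Plau and F13a1 were highest in replicate 1 and F3 in replicate 3. All 6 tested neutrophil markers rose in MCD (background 19.6%). One of them, Mmp8, had 0 MCS libraries at the limit of 0.1 FPKM and was tested only through livers on the deficient diet. The macrophage marker Mmp12 and the Kupffer marker Folr2, each with 1 MCS library at the limit, also needed those livers to be tested. The sum over the 7 listed neutrophil genes was 7.18 to 9.92 FPKM in MCS. In MCD it was 47.7, 82.9 and 144, highest in replicate 3. The part of these cells in the values of Plau, Plaur and F13a1 was not tested.

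**Figure D3:**
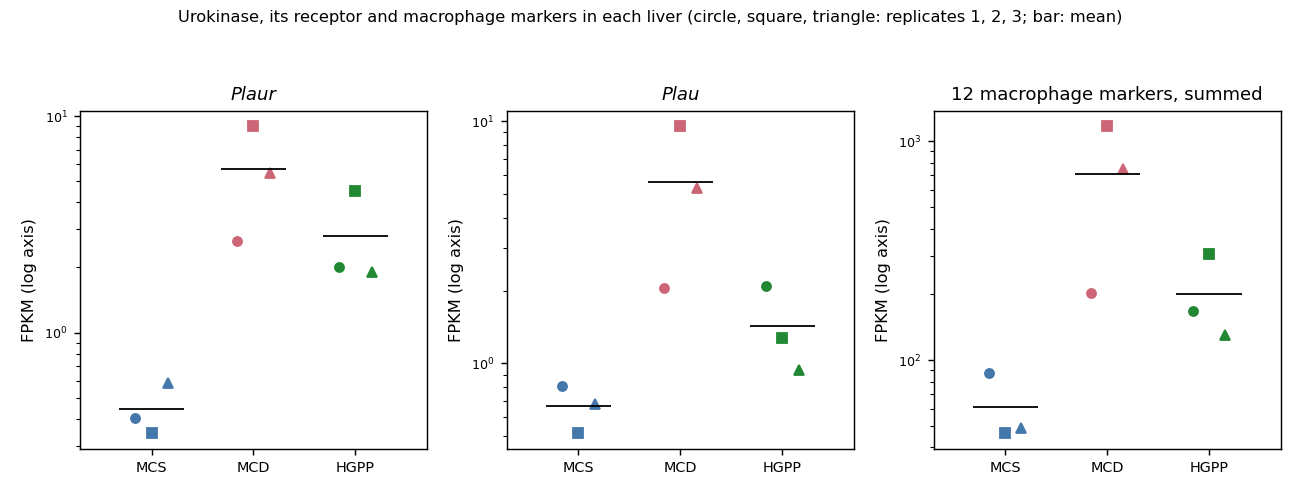
The panels plot Plaur, Plau and the sum of 12 macrophage markers in FPKM on log axes, with 1 point per liver (circle, square and triangle are replicates 1, 2 and 3, the bar is the mean, n = 3). In all 3 panels the MCS livers are lowest, MCD replicate 2 is highest (8.99 FPKM for Plaur, 9.56 for Plau, 1176 for the sum), and MCD replicate 1 lies lowest of the MCD livers (2.66, 2.06 and 203).

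Of the 9 anticoagulant genes Procr rose and Serpinc1 fell in MCD, and Thbd rose and Proz fell in HGPP. Each is 11.1% of the 9. The background was 19.6% higher and 2.55% lower in MCD, and 16.4% and 2.48% in HGPP. Serpinc1, antithrombin, stood at 287, 284 and 278 FPKM in MCS, at 204, 189 and 154 in MCD and at 258, 216 and 226 in HGPP. It fell by 0.64 on the log2 scale in MCD (SE 0.20, limma adjusted p = 0.0426), and its HGPP value of -0.28 (SE 0.14, limma adjusted p = 0.179) did not pass the test. The 3 groups did not overlap in FPKM, but HGPP and MCD do once divided by the size factors given below. Serpind1, heparin cofactor II, averaged 228 ± 28.9, 141 ± 44.7 and 191 ± 49.8 FPKM in MCS, MCD and HGPP, with an MCD value of -0.74 (SE 0.27, limma adjusted p = 0.0712). Serpina10, the protein Z-dependent inhibitor, averaged 66.8 ± 6.73, 61.4 ± 12.7 and 75.5 ± 3.14 FPKM, and its groups overlapped.

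The protein C system starts when thrombin bound to thrombomodulin cuts protein C held by its receptor. Procr, that receptor, stood at 0.677, 0.284 and 0.197 FPKM in MCS, at 1.24, 3.63 and 3.57 in MCD and at 0.737, 2.18 and 0.565 in HGPP. It rose by 2.56 on the log2 scale in MCD (SE 0.48, limma adjusted p = 0.00639), while the HGPP value of 1.28 (SE 0.51, limma adjusted p = 0.107) did not pass the test and HGPP replicate 3 lay within the MCS range. Thbd, thrombomodulin, stood at 0.597, 0.842 and 0.915 FPKM in MCS, at 1.29, 2.06 and 1.23 in MCD and at 1.67, 3.67 and 3.05 in HGPP. It rose in HGPP by 1.66 (SE 0.32, limma adjusted p = 0.0101), and the MCD value of 0.86 (SE 0.31, limma adjusted p = 0.0743) did not pass the test although the groups did not overlap. Of the 10 low genes Thbd and F8 had their highest mean in HGPP.

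Proc, protein C itself, averaged 270 ± 24.0, 245 ± 58.1 and 207 ± 22.1 FPKM in MCS, MCD and HGPP, and its log2 fold changes of -0.17 (SE 0.23) and -0.38 (SE 0.15) did not pass the test. Pros1, protein S, its cofactor, averaged 9.13 ± 1.55, 13.2 ± 2.27 and 10.1 ± 0.813 FPKM, with an MCD value of 0.52 (SE 0.23, limma adjusted p = 0.121). Tfpi, tissue factor pathway inhibitor of endothelial cells, stood at 0.775 to 0.972 FPKM in MCS, 1.02 to 2.30 in MCD and 1.03 to 1.82 in HGPP, with no overlap with MCS and no call (0.87, SE 0.34, limma adjusted p = 0.0913, and 0.49, SE 0.27, limma adjusted p = 0.228). The summed FPKM of 8 vascular endothelial markers was 54.2 to 67.0 in MCS, 65.0 to 128 in MCD and 86.0 to 125 in HGPP. In each comparison with MCS 1 of the 8 markers rose (12.5%, background 19.6% in MCD and 16.4% in HGPP). Their part in Thbd, Procr and Tfpi was not tested.

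Proz, protein Z, the cofactor of Serpina10, stood at 55.6, 62.2 and 65.8 FPKM in MCS, at 59.0, 35.9 and 51.4 in MCD and at 41.4, 30.7 and 32.1 in HGPP. It fell in HGPP by 0.82 (SE 0.16, limma adjusted p = 0.00998), and its MCD value was -0.35 (SE 0.22, limma adjusted p = 0.270). In HGPP against MCD it was at -0.47 (SE 0.24, limma adjusted p = 0.409) and did not pass the test. Proz lies 4.24 kb after F10, which lies 1.5 kb after F7, on chromosome 8 and on one strand.

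In the initiation and common pathway 2 of 5 genes fell in MCD (40%, background 2.55%) and 1 in HGPP (20%, background 2.48%). F7, the protease that binds tissue factor, stood at 50.8, 57.5 and 70.6 FPKM in MCS, at 33.7, 35.0 and 43.3 in MCD and at 40.6, 31.5 and 37.6 in HGPP. The log2 fold change was -0.67 (SE 0.21, limma adjusted p = 0.0430) in MCD and -0.70 (SE 0.17, limma adjusted p = 0.0226) in HGPP. F2, prothrombin, stood at 439, 425 and 431 FPKM in MCS, at 257, 293 and 225 in MCD and at 328, 294 and 345 in HGPP, so that the 3 groups did not overlap. It fell by 0.75 in MCD (SE 0.20, limma adjusted p = 0.0263), and the HGPP value of -0.43 (SE 0.14) had a limma adjusted p of 0.0657.

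F10, factor X, averaged 174 ± 17.0, 122 ± 20.3 and 131 ± 10.7 FPKM in MCS, MCD and HGPP, with log2 fold changes of -0.52 (SE 0.21, limma adjusted p = 0.0929) and -0.40 (SE 0.14, limma adjusted p = 0.0758). Neither deficient group overlapped MCS in F10. F5, factor V, averaged 56.3 ± 2.31, 53.9 ± 9.70 and 51.8 ± 7.79 FPKM, and its groups overlapped. F3, tissue factor, averaged 2.6 ± 0.445, 3.50 ± 0.525 and 2.66 ± 0.248 FPKM, with an MCD value of 0.42 (SE 0.25, limma adjusted p = 0.248).

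In the contact and intrinsic pathway 1 of 6 genes (16.7%) fell in each comparison with MCS, F9 in MCD (background 2.55%) and Klkb1 in HGPP (background 2.48%). F9, factor IX, stood at 72.9, 83.9 and 79.4 FPKM in MCS, at 57.8, 43.8 and 38.0 in MCD and at 62.4, 42.9 and 62.7 in HGPP. It fell by 0.78 in MCD (SE 0.21, limma adjusted p = 0.0271), with an HGPP value of -0.51 (SE 0.17, limma adjusted p = 0.0692). Klkb1, plasma prekallikrein, stood at 26.4, 30.0 and 33.3 FPKM in MCS, at 28.8, 17.9 and 24.8 in MCD and at 20.8, 15.6 and 12.6 in HGPP. It fell by 0.89 in HGPP (SE 0.20, limma adjusted p = 0.0167), with an MCD value of -0.35 (SE 0.23, limma adjusted p = 0.283). Whether F9 and Klkb1 differ between the 2 deficient groups is given by HGPP against MCD, where neither passed the test (0.27, SE 0.24, limma adjusted p = 0.632, and -0.55, SE 0.26, limma adjusted p = 0.380).

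The other 4 genes of that pathway did not pass the test in any comparison. F11, factor XI, 4.66 kb from Klkb1 on chromosome 8, ranged from 14.2 to 37.4 FPKM within MCS alone. F12, factor XII, averaged 263 ± 34.0, 239 ± 7.28 and 274 ± 10.4 FPKM, and Kng1, kininogen, the source of bradykinin, 737 ± 143, 808 ± 149 and 635 ± 40.5 FPKM in MCS, MCD and HGPP. F8, factor VIII, made mainly by endothelial cells, averaged 0.693 ± 0.170, 0.812 ± 0.396 and 0.868 ± 0.288 FPKM. Kng1, F12 and F11 are hepatocyte genes whose MCD livers overlapped the MCS livers, unlike those of Plg or the fibrinogen chains.

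HGPP against MCS gave 10 calls, 3 higher and 7 lower (background 18.8% in either direction). The genes that rose were Plaur, Thbd and Plat (9.38% of the 32, background 16.4%), and those that fell were Fga, Fgb, Fgg, Plg, Klkb1, Proz and F7 (21.9%, background 2.48%). The median log2 fold change was -0.28 over the 32 genes and 0.33 over all genes. The HGPP livers were all above the MCS livers for 6 genes (18.8%, background 36.7%), F13a1 among them, and all below them for 13 (40.6%, background 4.87%). The MCS livers are the same in both comparisons, so that the values of MCD and HGPP against MCS are not independent of each other. With the study's own thresholds (an unadjusted p under 0.05 and a change of more than 1 on the log2 scale) 5 genes were higher and 4 lower in MCD (background 19.3% and 1.95%) and 4 higher and 2 lower in HGPP (background 10.9% and 1.48%).

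**Figure D4:**
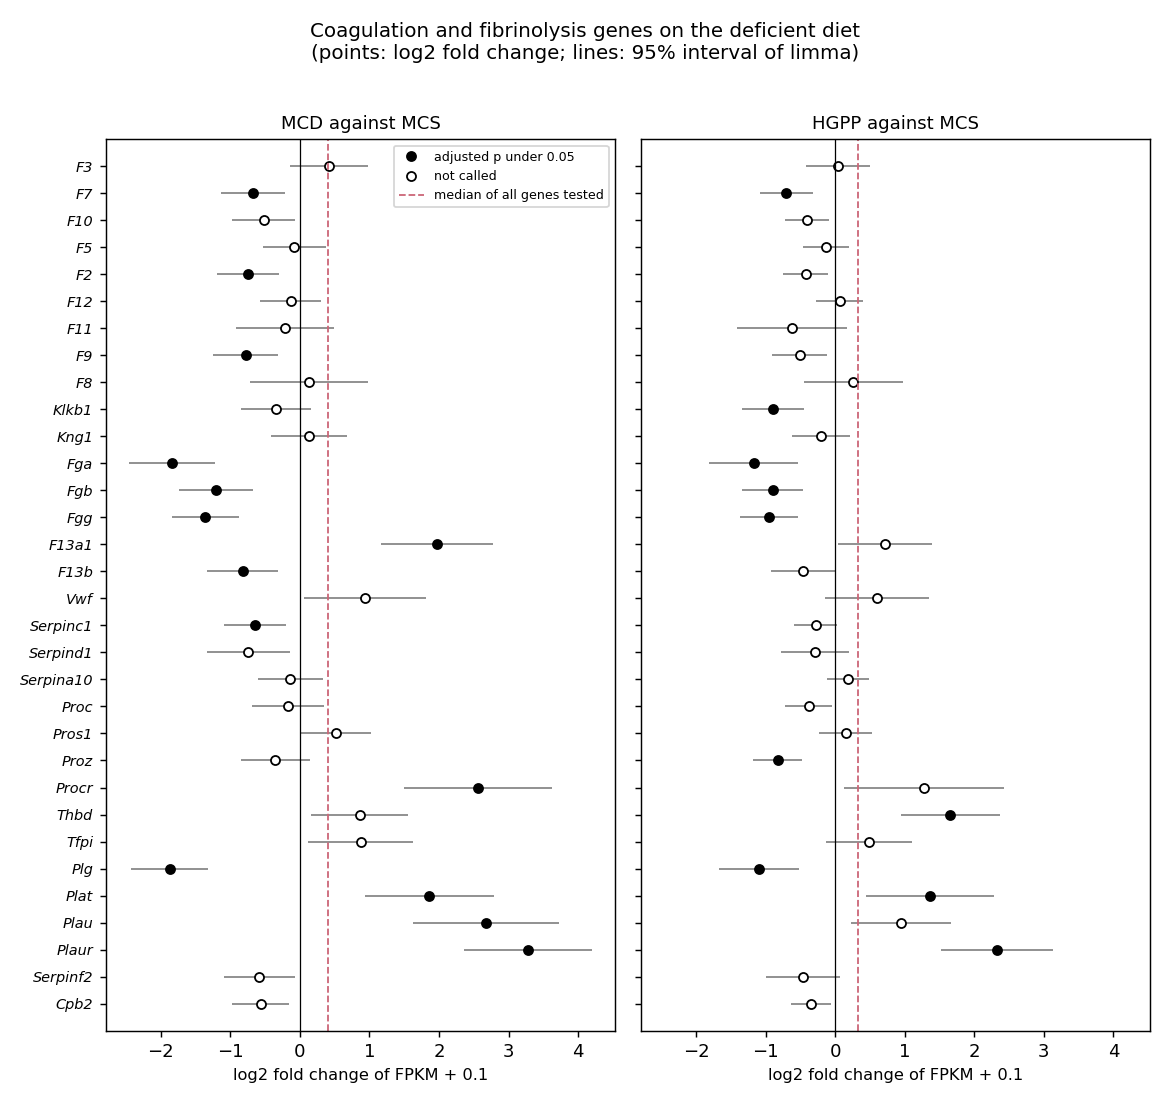
Log2 fold changes of FPKM + 0.1 for the 32 genes in MCD (left) and HGPP (right) against MCS, with the 95% interval of limma as a line, filled points for an adjusted p under 0.05 and open points for the rest. The dashed line marks the median of all tested genes, at 0.40 and 0.33, and in both panels the fibrinogen chains and Plg lie furthest left and Plaur furthest right.

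The distance to the median of all genes depends on the scaling of the libraries. With median-of-ratios scaling the median of all genes was 0.02 in MCD and 0.01 in HGPP against MCS, and each gene lay lower accordingly. The calls were then 5 higher and 13 lower in MCD (background 8.91% and 7.37%) and 2 higher and 12 lower in HGPP (background 5.10% and 4.86%). With quantile normalization they were 3 higher and 7 lower in MCD (background 4.89% and 4.26%) and 2 higher and 4 lower in HGPP (background 4.70% and 3.86%). The HGPP calls of all 3 fibrinogen chains were then lost, at -1.02 for Fga (limma adjusted p = 0.0976), -0.73 for Fgb (limma adjusted p = 0.0641) and -0.74 for Fgg (limma adjusted p = 0.0536). Quantile normalization also ended the MCD calls of F7, Serpinc1, Procr and Plat (limma adjusted p of 0.0505 to 0.123). Plat in HGPP lost its call with median-of-ratios scaling (limma adjusted p = 0.115) and with quantile normalization (limma adjusted p = 0.246). Relative to the median of all genes Plg was at -2.28, Fga at -2.24 and Plaur at 2.87 in MCD. The genes F3, F8 and Kng1, none of them called, lay above 0 in MCD and at 0.01, -0.24 and -0.29 with median-of-ratios scaling. Overlap between groups was judged on FPKM without such scaling. The size factors were 0.757 to 0.906 in MCS, 1.05 to 1.24 in MCD and 0.990 to 1.14 in HGPP. Divided by them, some narrow separations from MCS are lost, such as Tfpi and Vwf in MCD and Tfpi and Plau in HGPP. The separations of Serpinc1 and Kng1 between HGPP and MCD are lost as well.

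Several calls were lost when 1 liver was left out, which also leaves fewer samples in the fit. In MCD against MCS 8, 9, 8 and 9 genes were called without MCS replicate 1, 2 or 3 or without MCD replicate 3, against 14 with all livers. Calls over all tested genes also fell in these fits, to 1557, 1786, 1248 and 1354 from 3060. Fga, Fgb, Fgg, Plg, Plaur, Plau, Procr and F13a1 were called in all 6 fits that left out 1 liver, whereas F7 was called in none of them, with adjusted p-values of 0.0555 to 0.170 and log2 fold changes of -0.78 to -0.54 beside -0.67. F2 lost its call without each MCS liver in turn, at log2 fold changes of -0.74, -0.76 and -0.75, beside -0.75 with all livers. In HGPP against MCS 6 and 4 genes were called without MCS replicate 2 or 3, beside 1133 and 1387 over all genes, which fell from 2602. Fgg, Proz, Thbd and Plaur were called in all 6 fits. Fgb kept its call in 5, Fga and Plg in 4, F7 and Klkb1 in 2 and Plat in 1 of these 6. Within MCD, replicate 1 was the lowest liver for 8 of the 10 low genes. Replicate 3 was the lowest MCD liver for 14 of the 22 abundant genes, and replicate 2 the lowest HGPP liver for 14 of them. Replicates of a group thus differed in the same direction over many of these genes. The RNA integrity that the study lists was also lowest of the group in the livers that were lowest for the abundant genes, and its part in these values was not tested.

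HGPP against MCD shows the polysaccharides at the same diet, and no gene of the 32 passed the adjusted test. In HGPP against MCD 0 of the 32 genes passed the adjusted p (limma, smallest adjusted p = 0.233), with a background of 3 of all tested genes (0.0217%), and limma's voom on recovered reads also called 0. At an unadjusted p under 0.05 there were 5 genes, 2 higher and 3 lower, against a background of 13.7%. They were Plg and Thbd on the higher side and Plau, Procr and F13a1 on the lower side. The median log2 fold change was 0.04 over the 32 genes and -0.07 over all genes, and 16 of the 32 lay above 0.

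The values of this comparison have wide intervals. Plau was at -1.72 (95% interval -2.85 to -0.60, limma adjusted p = 0.233), F13a1 at -1.25 (-2.06 to -0.43, limma adjusted p = 0.233) and Procr at -1.28 (-2.46 to -0.10, limma adjusted p = 0.336), and these 3 also passed the study's thresholds, all lower (9.38%, background 5.17%), with 0 higher (background 0.919%). Plg was at 0.77 (0.05 to 1.5, limma adjusted p = 0.343) and Thbd at 0.80 (0.04 to 1.56, limma adjusted p = 0.348). Fga was at 0.67 (-0.13 to 1.47), Fgb at 0.31 (-0.30 to 0.91) and Fgg at 0.41 (-0.14 to 0.95). These intervals hold 0 as well as a rise of over 0.9 on the log2 scale, so that neither an effect of that size nor its absence is shown.

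Groups did not overlap between HGPP and MCD for 7 of the 32 genes. F2, F12, Serpinc1 and Cpb2 were higher in every HGPP liver (12.5%, background 5.83%), and F3, Kng1 and F13a1 were lower in every HGPP liver (9.38%, background 11.3%). Of them F13a1 passed the study's thresholds and the others had log2 fold changes between -0.38 and 0.37. Serpinc1 and Kng1 overlap once the values are divided by the size factors. Without MCD replicate 1, the MCD liver with the lowest Plau, Plau was called at -2.30 (limma adjusted p = 0.0147), beside 443 calls over all genes. No other fit that left out 1 liver called a gene of the 32. The 12 macrophage markers were all below 0 in HGPP against MCD with 0 called, and 8 of them passed the study's thresholds. All 6 tested neutrophil markers passed those thresholds and lay lower in every HGPP liver, with a median of -2.07 and 0 called. The part of these cells in the values of Plau, Procr and F13a1 was not tested.

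**Figure D5:**
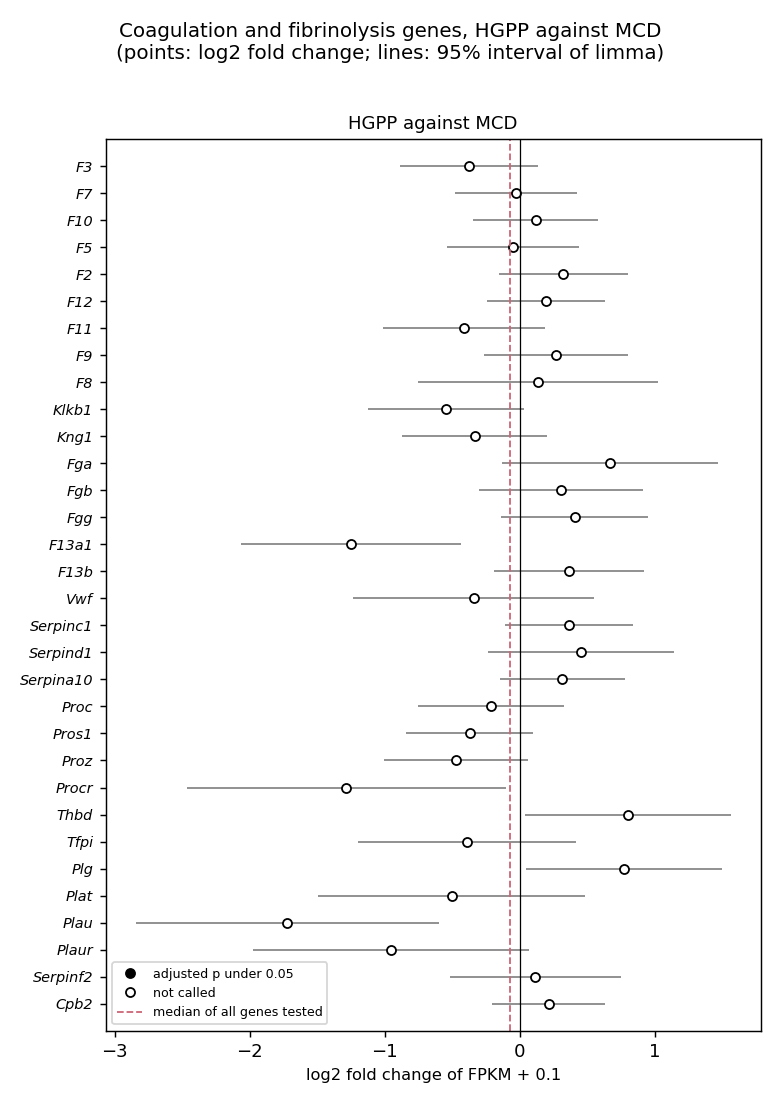
Log2 fold changes of FPKM + 0.1 for the 32 genes in HGPP against MCD, with the 95% interval of limma as a line, and open points because 0 genes reached an adjusted p under 0.05. The dashed line marks the median of all tested genes at -0.07, Plau lies lowest at -1.72 and Thbd highest at 0.80, and 16 points lie on each side of 0.

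Genes of the same system outside the 32 were read from lists of their own. Their counts stand beside 19.6% of all tested genes that rose and 2.55% that fell in MCD, and 16.4% and 2.48% in HGPP. In HGPP against MCD 0 genes of these lists were called (smallest limma adjusted p = 0.129, background 0.0217%). A call in only 1 of the 2 comparisons with MCS thus shows no difference between HGPP and MCD. Of 12 tested plasma proteases and inhibitors of the liver, 5 fell and 1 rose in MCD and 5 fell and 0 rose in HGPP against MCS. Serping1, the C1 inhibitor, which also inhibits kallikrein and factor XIIa, fell by 1.18 in MCD (SE 0.22, limma adjusted p = 0.00659) and by 0.94 in HGPP (SE 0.18, limma adjusted p = 0.00997). Apoh, β2-glycoprotein I, fell by 0.94 in MCD (SE 0.24, limma adjusted p = 0.0210), and Fgl2, a membrane prothrombinase, rose by 1.15 (SE 0.33, limma adjusted p = 0.0334). Apoh also fell in HGPP, by 0.69 (limma adjusted p = 0.0270). Fgl1, a fibrinogen-like hepatocyte protein, fell by 0.91 in MCD (SE 0.24, limma adjusted p = 0.0264) and by 1.14 in HGPP (SE 0.18, limma adjusted p = 0.00488). Hrg, histidine-rich glycoprotein, fell by 0.72 in MCD (SE 0.22, limma adjusted p = 0.0419) and by 0.88 in HGPP (SE 0.18, limma adjusted p = 0.0135).

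Receptors that hold plasminogen at the cell surface were read from the list of regulators of plasmin. Anxa2, annexin A2, a cell surface receptor for plasminogen and Plat, stood at 2.58, 3.83 and 3.03 FPKM in MCS, at 14.7, 62.4 and 28.8 in MCD and at 32.1, 63.5 and 44.3 in HGPP. It rose by 3.22 in MCD (SE 0.43, limma adjusted p = 0.00192) and by 3.81 in HGPP (SE 0.25, limma adjusted p = 0.000181). Its partner S100a10 rose in HGPP by 1.77 (SE 0.28, limma adjusted p = 0.00495), beside an MCD value of 0.67 (limma adjusted p = 0.110). In HGPP against MCD 0 genes of this list were called (smallest limma adjusted p = 0.176). The plasminogen receptor Plgrkt rose in MCD by 1.40 (SE 0.28, limma adjusted p = 0.00795), beside an HGPP value of 0.31 (limma adjusted p = 0.445) that lay at -0.04 with median-of-ratios scaling.

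The vitamin K cycle loads clotting factors with the carboxyl groups that bind calcium. Of 7 genes of this cycle and of factor secretion, 1 rose in MCD and 2 in HGPP against MCS, and 0 fell. In HGPP against MCD 0 were called (smallest limma adjusted p = 0.282). Nqo1, a quinone reductase, rose by 1.65 in MCD (SE 0.28, limma adjusted p = 0.00434) and 0.90 in HGPP (SE 0.17, limma adjusted p = 0.0105), and Vkorc1l1, a vitamin K epoxide reductase, rose by 0.80 in HGPP (SE 0.15, limma adjusted p = 0.00945), beside an MCD value of 0.38 (limma adjusted p = 0.322) that lay at -0.04 with median-of-ratios scaling. Of 7 thrombin receptors and endothelial regulators 1 rose in MCD and 4 in HGPP, among them Entpd1, the ectonucleotidase CD39, at 1.64 (SE 0.41, limma adjusted p = 0.0202) and 1.27 (SE 0.31, limma adjusted p = 0.0254). Anxa5, annexin A5, rose in HGPP by 2.01 (SE 0.16, limma adjusted p = 0.000376), beside an MCD value of 1.01 (limma adjusted p = 0.155). F2rl1, the protease-activated receptor PAR2, was also called higher in HGPP. It had 0, 2 and 16 recovered reads in the MCS livers and 16, 36 and 27 in HGPP. With 1 MCS library at the limit it passed the filter on low values only through livers on the deficient diet, so that no fold is given. In HGPP against MCD 0 genes of this list were called (smallest limma adjusted p = 0.376).

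Of 10 tested platelet genes 3 rose in MCD (30%) and 1 in HGPP (10%). One of the former, Treml1, a receptor of platelet granules, had 0 recovered reads in each MCS liver and 7, 20 and 12 in the MCD livers. It passed the filter on low values only through livers on the deficient diet, so that no fold is given. Pf4, platelet factor 4, rose in MCD by 2.59 (SE 0.54, limma adjusted p = 0.0102) and P2ry12, an ADP receptor, by 1.73 (SE 0.45, limma adjusted p = 0.0240). Pf4 rose in HGPP by 1.42 (SE 0.41, limma adjusted p = 0.0424). Of 14 acute phase genes 4 rose and 1 fell in MCD and 2 rose and 1 fell in HGPP, and fibrinogen, itself an acute phase protein, fell in both. Lcn2, lipocalin 2, rose by 3.28 (SE 0.29, limma adjusted p = 0.000441) in MCD and 1.86 (SE 0.21, limma adjusted p = 0.00145) in HGPP, and Il1rn, the interleukin-1 receptor antagonist, by 1.78 (SE 0.29, limma adjusted p = 0.00407) and 1.51 (SE 0.24, limma adjusted p = 0.00488). Orm2, orosomucoid 2, rose in MCD by 2.13 (SE 0.59, limma adjusted p = 0.0293) although its groups overlapped, and Itih4, an inter-α-trypsin inhibitor heavy chain, fell in MCD by 1.21 (SE 0.22, limma adjusted p = 0.00542) and in HGPP by 0.99 (SE 0.19, limma adjusted p = 0.00996). Median-of-ratios scaling ended the calls of Fgl2, Entpd1, P2ry12 and Orm2 in MCD and of Nqo1, Vkorc1l1, F2rl1, Entpd1 and Pf4 in HGPP, each with its direction unchanged.

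The labelled tissue carried its markers in all 9 libraries. The 9 hepatocyte markers in the table summed to 76557 to 95207 FPKM in MCS, 43727 to 80484 in MCD and 60872 to 66897 in HGPP, with 1 of the 9 lower in MCD and 1 higher and 1 lower in HGPP against MCS. Each is 11.1% of the 9. The background was 2.55% lower in MCD, and 16.4% higher and 2.48% lower in HGPP. The part of hepatocyte RNA in the values of the hepatocyte genes above was not tested. Recovered depth was 11492745 to 18903103 fragments per library, and the abundant genes rest on at least 426 recovered reads in each library.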

How the data were processed

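Liver RNA of 9 mice, 3 each of MCS, MCD and HGPP, was sequenced by the authors. The authors deposited 1 table of FPKM values per gene and library, in which adapter trimming, mapping, counting and scaling to gene length and depth are already done. Cutadapt and HTSeq are named in their methods. The notes of the submitters list other tools, namely STAR 2.7.7a, featureCounts 2.0.0 and fastp 0.20.1. The tools, genome build and strand setting behind the table itself are unknown, being not given in the sources used here.

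Using gene lengths of GENCODE vM21 (GRCm38), 98.1% of 115865 values of up to 1000 reads were whole within 0.02 reads. The build and the depth of 11492745 to 18903103 fragments per library were inferred from this. The 13817 genes that reached an FPKM of 0.1 in at least 3 libraries were tested. Each pair of groups was fitted with limma 3.58.1 (R 4.3.3) on log2(FPKM + 0.1), using lmFit and a trended eBayes, and p-values were adjusted by Benjamini-Hochberg over these genes. The code was tested on simulated data. Folds on this scale understate changes of low genes. Tables and figures used Python 3.11.15, pandas 2.3.3, numpy 2.4.6, scipy 1.17.1 and matplotlib 3.10.9.

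The rule for the 32 genes names symbols and uses no measured value, but the 32 genes, the other lists and the markers were chosen with earlier results of these data known. Named genes outside the 32 are up to 3 per list and comparison, those past the adjusted p with the greatest change, and 1 gene of these lists is not reported here. Promoters were taken from a RefSeq table (GRCm38.p6) by symbol, with an entry for 24 of the 32 genes. They were searched for 8 short motifs, of which CTGGGA and TGANTCA are described with their sequences and the others by their counts. Alternatives were pseudocounts of 1 and 0.01, an FPKM filter of 1, no filter, median-of-ratios scaling, quantile normalization, one fit over 9 libraries, the replicate number as a block, limma's voom on recovered reads, and leaving out each library. The methods of the study compared counts, but the deposited values are FPKM and were tested on the log scale.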

Additional observations from a re-analysis of the deposited data

How the results depend on the processing

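No gene of the 32 that passed the test in either comparison with MCS changed direction under any alternative run. Of the counts of genes called, those outside 1.5 times the value with all livers were as follows. In MCD against MCS 9 genes were called with the replicate block, against 14 (all genes 1876, against 3060). In HGPP against MCS 6 genes were called with no filter and 6 with quantile normalization, against 10 (all genes 1567 and 1183, against 2602). With median-of-ratios scaling 15 genes passed the study's thresholds in MCD against MCS, against 9, and 10 in HGPP against MCS, against 6. Over all genes 2309 passed them in MCD, against 2940, and 1249 in HGPP, against 1713. With a pseudocount of 1 a single gene (1) passed the study's thresholds in HGPP against MCD, against 3 (all genes 261, against 841).

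Leaving out each liver in turn gave 8 to 15 calls in MCD against MCS, 0 to 1 in HGPP against MCD and 4 to 10 in HGPP against MCS. Over all genes the calls were 1248 to 3629, 0 to 443 and 1025 to 2025. At the study's thresholds the ranges were 9 to 11, 2 to 6 and 3 to 8, beside 2663 to 3543, 530 to 1359 and 1261 to 2021 over all genes. Where 1 liver is left out, 2 livers carry the spread of that group, and fewer samples enter the fit. For the other changes the cause was not tested.

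The replicate numbers of the labels are shared by the groups, but no source says that they pair mice. Correlations of same-numbered deviations were -0.344, -0.306 and -0.261 for MCD with MCS and 0.302, 0.0237 and -0.158 for HGPP with MCD, so the livers were treated as unpaired. With the replicate block 9 genes were called in MCD against MCS, where F2, F7, F9, F13b and Serpinc1 lost their calls, 0 in HGPP against MCD and 10 in HGPP against MCS. Over all genes the block gave 1876, 14 and 1585 calls. Depth limits F13a1, Plat and Procr most, with as few as 1, 7 and 6 recovered reads in a library.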

Other observations

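Of the other motifs searched within 250 bases before the start of the 24 genes with a promoter entry, TTGCNNAA, a C/EBP element, was found in 7 (29.2%, all promoters 9.55%) and TTCNNNGAA, a STAT element, in 4 (16.7%, all promoters 7.18%). Fga and Fgb held both, and Fgg neither. TATAAA was found in 1 (4.17%, all promoters 13%), and GAGGAAGT, CAAAGTCCA and the HNF1 motif in 0, against 2.44%, 0.381% and 0.170% of all promoters. These are counts of letters, with no test.

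The ratio of Plau to Plaur within a liver was 1.99, 1.5 and 1.15 in MCS, 0.774, 1.06 and 0.964 in MCD and 1.04, 0.283 and 0.496 in HGPP. MCS lay above all other livers, and HGPP replicate 1 lay within the MCD range. The ratio of F2 to Serpinc1, the protease and its inhibitor, was 1.5 to 1.55 in MCS, 1.26 to 1.55 in MCD and 1.27 to 1.52 in HGPP, with overlap between all groups.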
